A study of Mus musculus with 4 samples.

Results

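The genes described are the nuclear-encoded subunits of mitochondrial complex I, taken by symbol as all listed genes that begin with Ndufa, Ndufb, Ndufc, Ndufs or Ndufv, without the Ndufaf assembly factors. This rule gave 37 of the 14697 genes in the table, and these 37 held 309870 of 50780376 UMIs (0.610%). A UMI marks 1 captured RNA molecule. Peripheral blood cells of female C57BL/6 mice were profiled by droplet sequencing of RNA 3′ ends at 4 months (young) and 24 months (old), with no other treatment, after density separation and lysis of red cells. Each age had 2 samples and each sample was a pool of 2 mice, which cannot be told apart, so n = 2 per age throughout. The samples held 2187 to 4642 cells and 9521253 to 18658072 UMIs.

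Complex I takes electrons from NADH to ubiquinone and pumps protons across the inner mitochondrial membrane. Its catalytic core is built partly from nuclear genes and partly from genes of the mitochondrial DNA, and many accessory subunits, all nuclear, surround that core. The N module binds NADH, the Q module reduces ubiquinone, and the membrane arm carries the proton pumps. Monocytes and lymphocytes of the blood both respire, and resting naive lymphocytes are small cells with little cytoplasm.

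Of the 37 genes, 7 encode core subunits, among them Ndufs1, Ndufs3, Ndufs7, Ndufs8, Ndufv1 and Ndufv2. The accessory subunits comprised 5 genes of the N module, 4 of the Q module and 19 of the membrane arm, with Ndufab1, an acyl carrier protein found in both arms. Ndufa4 keeps a complex I symbol, but its protein is now counted with complex IV. The genes lie on 15 chromosomes, with at most 5 on one.

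Cells were assigned by raw marker UMIs, and a cell entered at most 1 gate. The gates took 8812 of 14588 cells, and 5776 cells (39.6%) stayed ungated. Classical monocytes had Csf1r, at least 3 Lyz2 and at least 3 Ly6c2 UMIs, while nonclassical monocytes had Csf1r, at least 3 Lyz2, at most 1 Ly6c2 UMI and a UMI of Cx3cr1, Fcgr4, Treml4 or Ace. Markers that no gate used bore out both names. Ccr2, F13a1, Fn1 and Chil3 summed to between 3170 and 5305 UMIs per 1000000 UMIs of the gate (CPM) in classical and between 230 and 1656 CPM in nonclassical monocytes, whereas Nr4a1, Cd36, Spn, Itgal and Cd300e summed to between 257 and 418 and between 1767 and 2521 CPM. Of the T cell markers set aside for this check only Cd2 was listed, at 201 to 634 CPM in the Cd4, Cd8 and Klrb1c T gates and 321 to 679 CPM in the B gates, so the T gates rest on Cd3 UMIs. The monocyte, dendritic, NK, T and B gates set upper limits on UMIs of B or T cell markers of another lineage. These limits did not drop every cell with such a UMI. Platelet markers were not limited, and Ppbp and Pf4 summed to between 0 and 779 CPM in the NK samples. No doublet caller was run. There were 108 cell barcodes in 2 libraries, and the number expected by chance was not computed. RNA free in the suspension adds some UMIs of every gene to every cell, and its part in the levels was not tested.

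As a mean share of UMIs over the 4 samples, complex I RNA was highest in classical monocytes and, the haemoglobin-rich gate aside, lowest in the B cell gates. The summed level of the 37 genes in classical monocytes was 8063 and 7727 CPM in the young and 9250 and 9348 CPM in the old samples. In B cells with Fcer2a, the low-affinity IgE receptor of mature naive B cells, it was 5676 and 5402 CPM in the young and 5813 and 5700 CPM in the old. Every classical monocyte value thus lay above every value of this B gate. Nonclassical monocytes lay between, at 7600 and 6833 CPM in the young and 7880 and 7992 CPM in the old, and their range overlapped that of the classical gate.

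After classical monocytes (mean 8597 ± 823 CPM, SD, n = 4 samples) came the 36 cycling cells (7803 ± 751), nonclassical monocytes (7576 ± 522), natural killer (NK) cells (7545 ± 350), Cd4 T cells with at least 2 S100a6 UMIs (7328 ± 365) and dendritic cells (7287 ± 791). These neighbours overlapped in range, and in the young samples alone the mean of cycling cells (8266 CPM) was above that of classical monocytes (7895 CPM). T cells with Klrb1c (6779 ± 592), macrophages (6724 ± 1112) and Cd8 T cells with Ccl5 (6591 ± 457) were followed by basophils (6295 ± 298), Cd8 T cells low in Ccl5 (6280 ± 548) and Cd4 T cells low in S100a6 (6132 ± 496). B cells with Vpreb3, a gene expressed in immature B cells, stood at 5955 ± 318, B cells with S100a6 and without Fcer2a at 5876 ± 523, and Fcer2a B cells at 5648 ± 175. In the young alone, low S100a6 Cd4 T cells (5784 CPM) and low Ccl5 Cd8 T cells (5826 CPM) were below Vpreb3 B cells (5855 CPM). The haemoglobin-rich gate was lowest (3159 ± 500 CPM). There, haemoglobin took 44.9% to 56.3% of all UMIs and so lowered every other share. Cycling cells, dendritic cells, basophils, macrophages and Cd8 T cells low in Ccl5 had fewer than 10 cells in at least 1 sample. The plot of summed levels by gate shows these ranges.

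**Figure D1:**
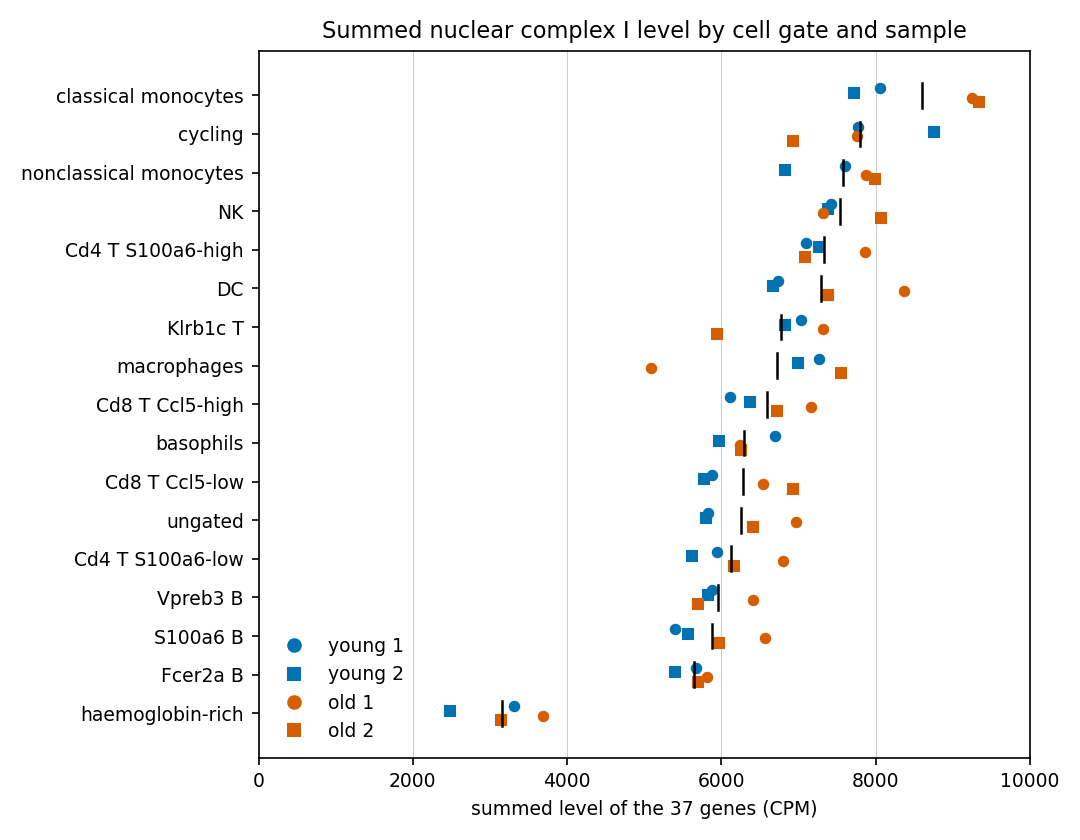
Summed level of the 37 nuclear complex I genes (x axis, CPM) in each cell gate (y axis), with 1 point per sample and a vertical line at the mean of the 4 samples. Classical monocytes sit between 7727 and 9348 CPM, and Fcer2a B cells between 5402 and 5813 CPM.

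Gates differed in depth, with a median of 3993 to 4598 UMIs per classical monocyte, 2328 to 2712 per nonclassical monocyte and 2044.5 to 2210 per Fcer2a B cell. With every cell thinned to 1000 UMIs, a classical monocyte still showed 6.38 to 7.96 different complex I genes, a nonclassical monocyte 5.77 to 6.96 and a Fcer2a B cell 4.93 to 5.19. The order of these 3 gates by mean was therefore also present at equal depth, although the monocyte gates overlapped. As UMIs per cell with no scaling, cycling cells (72.7) and macrophages (51.3) held more complex I UMIs than classical monocytes (37.8). Limits in raw marker UMIs, as for Ly6c2 and S100a6, themselves select cells by depth. The part of this in differences of UMIs per cell was not tested.

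The share of nuclear complex I genes in the RNA for the nuclear respiratory chain differed little between gate means. Of the UMIs of these genes and the listed nuclear genes of complexes II to V, complex I took between 29.0% and 31.1% as the mean of each gate. The gates with the most complex I RNA, such as classical monocytes (30.3%), and those with the least, such as Fcer2a B cells (30.9%), had similar shares. Single samples ran from 27.7% to 32.4% in the gates with at least 10 cells in every sample, both in Klrb1c T cells, and from 23.0% to 33.0% over all gates, at 3 cells each.

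The 7 complex I genes of the mitochondrial DNA followed another order. In Fcer2a B cells they summed to 7593 and 7658 CPM in the young and 7530 and 7347 CPM in the old samples, above the nuclear genes in every sample. Classical monocytes had 5906 and 5281 CPM in the young and 6591 and 6373 CPM in the old, below the nuclear genes in every sample. The ratio of mitochondrially encoded to nuclear complex I level was 0.60 to 0.70 in NK cells, 0.68 to 0.73 in classical and 0.70 to 0.86 in nonclassical monocytes. It was 1.24 to 1.28 in Vpreb3 B cells, 1.29 to 1.42 in Fcer2a B cells and 1.28 to 1.68 in S100a6 B cells, so that the B gates did not overlap the monocyte and NK gates. The highest ratio came from the first old sample. The authors removed cells with 10% or more mitochondrial UMIs, which bounds these levels, and its part in the ratio was not tested.

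**Figure D2:**
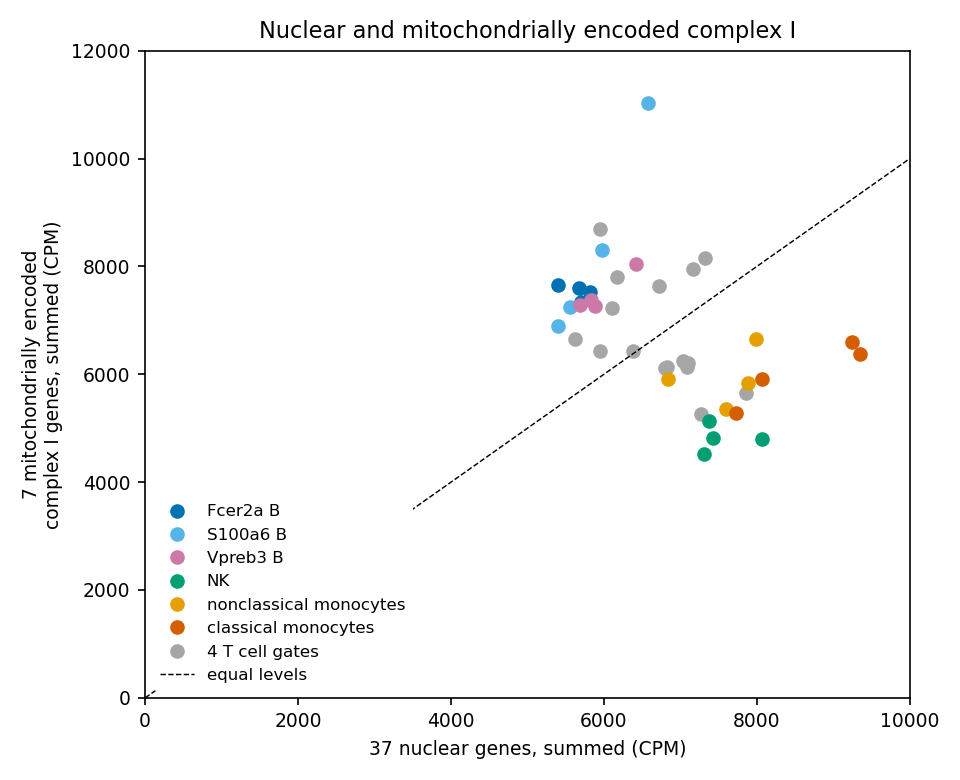
Summed level of the 7 mitochondrially encoded complex I genes (y axis, CPM) against that of the 37 nuclear genes (x axis, CPM), 1 point per sample, for the gates with at least 10 cells in every sample. Points of the B gates lie above the dashed line of equal levels (ratios 1.24 to 1.68) and those of monocytes and NK cells below it (ratios 0.60 to 0.86).

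Among single genes, levels over all cells spanned 19.0-fold. UMIs here come from 3′ ends and are not divided by gene length. The highest mean levels over the 4 samples were those of the accessory subunits Ndufa3 (392 CPM), Ndufa6 (376.0 CPM), Ndufa2 (352 CPM) and Ndufa13 (337 CPM) and of Ndufa4 (335 CPM). These 5 genes held 29.5% of the 37 genes' UMIs, while the 7 core genes held 11.1%. The lowest were Ndufs1 (20.7 CPM), the largest iron-sulfur subunit of the N module, Ndufv1 (52.2 CPM), which carries the NADH site and its flavin, and Ndufa9 (54.8 CPM), a Q module subunit.

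Over the 10 gates with at least 10 cells in every sample, the ratio of a gene's highest to its lowest gate mean was 1.27 to 4.15, with a median of 1.88. Classical monocytes were the highest gate for 13 genes, Cd4 T cells high in S100a6 for 8, and NK and Klrb1c T cells for 5 each. Fcer2a B cells were the lowest gate for 11, low S100a6 Cd4 T cells for 8 and Klrb1c T cells for 6. The high S100a6 Cd4 T gate held only 16 to 24 cells and 357 to 508 complex I UMIs per sample. Single-gene means there rest on few UMIs, and such counts of gates were not made over all genes. Among core genes, the gate means ranged over 10.1 to 41.8 CPM for Ndufs1, 91.8 to 117 for Ndufs3, 122 to 185 for Ndufs7, 84.7 to 199.7 for Ndufs8, 33.0 to 62.0 for Ndufv1 and 88.5 to 163 for Ndufv2. Ndufs3, a Q module subunit, varied least of all 37 genes. Processed pseudogenes named after Ndufa11, Ndufab1, Ndufb4 and Ndufs6 are annotated in GENCODE M21, and reads shared with such copies make the levels of these 4 genes less certain.

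Classical were compared with nonclassical monocytes within samples, over UMIs summed per sample and gate (edgeR quasi-likelihood test with the sample as block, Benjamini-Hochberg adjustment over all 2864 genes tested). Of the 37 genes 35 passed the filter on low values, and 9 were called higher in classical monocytes and 0 lower. Of all genes tested, 14.5% were called higher and 12.6% lower. The median log2 fold change was 0.26 for the complex I genes and 0.00 for all genes, and 30 of the 35 folds were above 0 (50.2% of all). Ndufs1 and Ndufa9 were not tested. DESeq2 called 0 of the 35 genes (290 of all genes), with 15 of the 35 at an unadjusted p under 0.05 in edgeR (1072 of all 2864 genes), and without the first old sample edgeR called 1, Ndufs8.

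Ndufs8, a core Q module subunit that holds iron-sulfur clusters, had the largest fold. It stood at 113 and 163 CPM in young and 248 and 275 CPM in old classical monocytes, and at 102 and 99.1 CPM in young and 161 and 127 CPM in old nonclassical ones. It was higher in the classical gate of all 4 samples, though the ranges overlapped (log2 fold change 0.80, SE 0.18, edgeR adjusted p = 0.00159). The young classical values rest on 10 and 16 UMIs.

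The other 8 called genes encode accessory subunits of the membrane arm, of whose 19 genes 8 were called. Ndufb8 was at 305, 377, 359 and 337 CPM in classical and 243, 238, 231 and 299 CPM in nonclassical monocytes (young 1, young 2, old 1 and old 2; log2 fold change 0.54, SE 0.14, edgeR adjusted p = 0.00603). Ndufb11, an X-linked subunit, was at 327, 316, 296 and 275 CPM in classical and 218, 194, 199 and 260.3 CPM in nonclassical cells (0.54, SE 0.15, edgeR adjusted p = 0.0101). For both genes the 2 gates did not overlap over the 4 samples, as was the case for Ndufb6 (113 to 162 against 47.6 to 109 CPM). Over all 35 genes tested, 4 were higher in classical monocytes without overlap (8.41% of all genes). Ndufc2 and Ndufc1, neighbours in the membrane arm, had log2 fold changes of 0.65 and 0.61, and Ndufb5, Ndufa3 and the X-linked Ndufa1 had 0.49, 0.40 and 0.40. Ndufc1 and Ndufa1 were higher in 3 of the 4 samples, and the others in all 4. Over 13 alternatives the call was kept in 12 for Ndufs8, 11 for Ndufb8, 10 for Ndufc1 and Ndufc2 each and 8 or 9 for Ndufb5, Ndufa3 and Ndufb11, but in 3 for Ndufb6 and 2 for Ndufa1.

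**Figure D3:**
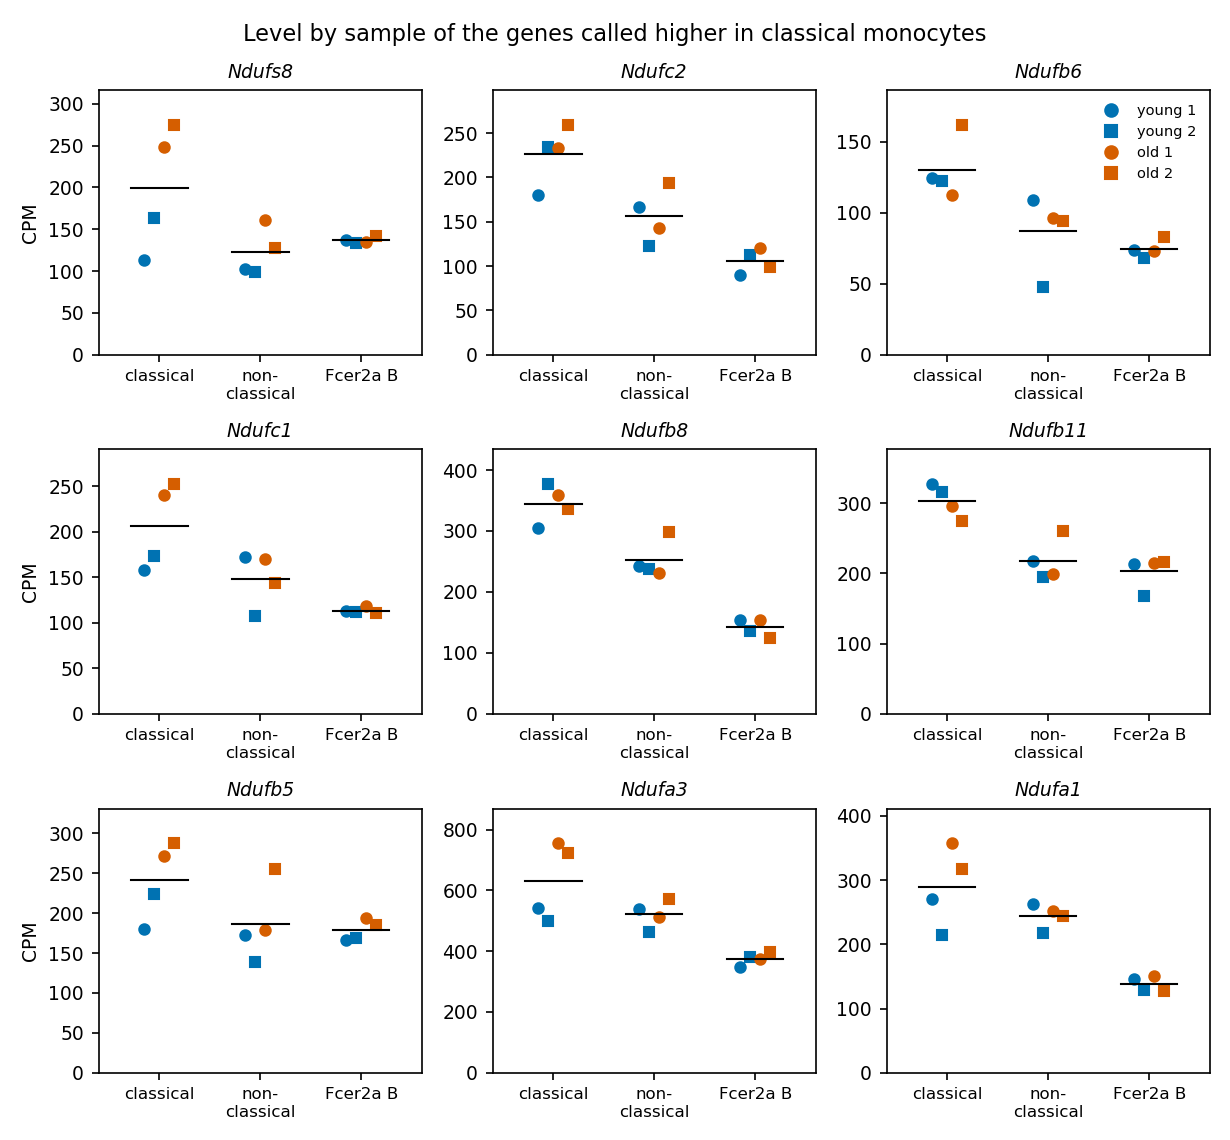
Level (y axis, CPM, from 0) of the 9 genes called higher in classical than in nonclassical monocytes, in those gates and in Fcer2a B cells, with 1 point per sample and a line at the mean. Ndufb6, Ndufb8 and Ndufb11 do not overlap between the monocyte gates, and the old classical samples of Ndufs8 (248 and 275 CPM) stand above its young ones.

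Of the 6 core genes tested only Ndufs8 was called. Ndufs3 (log2 fold change 0.41, SE 0.22), Ndufs7 (0.18, SE 0.18), Ndufv1 (0.15, SE 0.27) and Ndufv2 (-0.02, SE 0.19) were not. Ndufab1 had 0.63 (SE 0.25) and Ndufa4 0.05 (SE 0.12), neither called. Of the mitochondrially encoded complex I genes 1 of 6 was called higher, mt-Nd4 (0.29, SE 0.08). Among other respiratory genes, 8 of 18 of complex V, the ATP synthase, 5 of 11 of complex IV and 2 of 9 of complex III were called higher, and 1 of complex IV lower. The same held for 4 of 5 other mitochondrially encoded genes and for 41 of 95 cytoplasmic ribosomal protein genes, of which 3 were called lower.

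Sequence around the start of these genes was taken from RefSeq (GRCm38.p6), which gave 33 of the 37 genes a promoter of 300 bases, 250 of them before the start. The windows below hold the 100 bases before the start of the 5 called genes in which no annotated exon reaches into that stretch. They are printed on the gene's strand, with matches to any of 7 searched words in capitals. The words, searched on both strands, were GCATGCGC (NRF1), CCGGAAG (ETS), AAGATGGC (YY1), GGGCGG (SP), CCAAT, TCAAGGTCA (ERR) and TGACGTCA (CRE).
Ndufs8, chr19:3912775-3912874, minus strand: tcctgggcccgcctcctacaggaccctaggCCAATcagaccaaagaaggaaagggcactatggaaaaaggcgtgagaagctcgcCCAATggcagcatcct
Ndufb8, chr19:44555443-44555542, minus strand: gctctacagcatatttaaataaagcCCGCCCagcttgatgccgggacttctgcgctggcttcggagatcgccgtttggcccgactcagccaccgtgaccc
Ndufc2, chr7:97399903-97400002, plus strand: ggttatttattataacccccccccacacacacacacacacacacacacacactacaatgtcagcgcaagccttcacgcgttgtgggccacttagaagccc
Ndufb6, chr4:40279422-40279521, minus strand: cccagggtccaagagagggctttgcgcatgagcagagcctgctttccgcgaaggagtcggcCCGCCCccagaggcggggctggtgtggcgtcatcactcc
Ndufa3, chr7:3617273-3617372, plus strand: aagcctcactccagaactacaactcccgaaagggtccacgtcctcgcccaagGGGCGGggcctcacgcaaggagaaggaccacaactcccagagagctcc

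These 5 stretches share no searched word in all of them. Ndufs8 holds CCAAT at 2 places, Ndufb8, Ndufb6 and Ndufa3 hold GGGCGG on one strand or the other, and Ndufc2 holds none of the 7 words here and has a run of ca repeats. Over the 300-base promoters, GGGCGG was found in 15 of 33 complex I genes (38.2% of all 27025 promoters), CCAAT in 10 (41.1% of all), CCGGAAG in 4 (9.93%), GCATGCGC in 3 (3.05%), TGACGTCA in 3 (2.03%) and TCAAGGTCA in 0 (0.466%).

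The word AAGATGGC, the core of sites bound by YY1, was found in 7 of 33 genes and in 3.19% of all promoters. In all 7 it lay downstream of the start on the sense strand, and its ATG was the annotated start codon, so that the word is also the place where translation begins. The 7 places are shown because 3 of these genes (Ndufc1, Ndufa3 and Ndufb8) were among the 9 called above. The word is in capitals.
Ndufc1, chr3:51408918-51408941, minus strand: tgcggaacAAGATGGCgccgtccg
Ndufa3, chr7:3617387-3617410, plus strand: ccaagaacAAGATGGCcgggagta
Ndufb8, chr19:44555393-44555412, minus strand: agaaggtgAAGATGGCtgcc
Ndufa9, chr6:126849100-126849123, minus strand: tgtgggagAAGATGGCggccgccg
Ndufs4, chr13:114388045-114388067, minus strand: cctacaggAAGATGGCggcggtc
Ndufs6, chr13:73328434-73328457, minus strand: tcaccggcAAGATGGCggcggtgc
Ndufs7, chr10:80249465-80249488, plus strand: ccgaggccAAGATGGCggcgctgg

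A matching word is a description of the letters and not evidence of binding. No searched word set the called genes apart from the rest by a test, since none was run.

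Against Fcer2a B cells, classical monocytes were higher for most nuclear complex I genes. Of 36 genes tested 28 were called higher and 0 lower (edgeR, sample as block, 2245 genes; 30.1% of all genes were called higher and 29.8% lower). The median log2 fold change was 0.67, against -0.05 for all genes. The membrane arm gave 18 of 19 accessory genes, the N module 4 of 5, the Q module 3 of 4 and the core 2 of 6 (Ndufs8 and Ndufv2).

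The largest differences were in the membrane arm. Ndufb8 was at 305, 377, 359 and 337 CPM in classical monocytes and 154, 136, 154 and 124 CPM in Fcer2a B cells (young 1, young 2, old 1 and old 2), without overlap (log2 fold change 1.36, SE 0.12, edgeR adjusted p = 9.13e-09). Ndufa1 was at 271, 214, 358 and 317 CPM against 145, 128, 150.3 and 128 CPM (1.21, SE 0.13, edgeR adjusted p = 1.12e-07). Ndufb2 (1.22, SE 0.16), Ndufc2 (1.18, SE 0.14), Ndufc1 (1.02, SE 0.14), Ndufb3 (0.96, SE 0.13), Ndufs6 of the N module (0.94, SE 0.15) and Ndufa3 (0.86, SE 0.11) followed. Of the 28 called genes 19 had no overlap between the gates (23.4% of all genes were higher without overlap). Without TMM scaling the median of all genes was -0.12 and that of the complex I genes 0.59, with no reversal of direction in a called gene.

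Ndufa12, an accessory N module subunit, was the 1 gene tested with a fold below 0 (-0.31, SE 0.18, edgeR adjusted p = 0.147). It was at 33.9, 61.2, 111 and 90.8 CPM in classical monocytes, from 3, 6, 68 and 41 UMIs, and at 105, 105, 121 and 118 CPM in Fcer2a B cells. It was lower in the classical gate of all 4 samples, and that difference was not called. The core genes Ndufs3 (0.35, SE 0.18), Ndufs7 (0.14, SE 0.15) and Ndufv1 (0.42, SE 0.21) were not called either, nor was Ndufab1 (0.21, SE 0.20). Ndufa4 was called higher (0.60, SE 0.12).

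The mitochondrially encoded complex I genes differed in the opposite direction. Of 6 tested, 5 were called lower in classical monocytes and 0 higher, with a median log2 fold change of -0.54. mt-Nd2 was at 407, 459, 480 and 569 CPM in classical monocytes and 898, 965, 758 and 908 CPM in Fcer2a B cells (-0.74, SE 0.10). mt-Nd5 (-0.72, SE 0.15), mt-Nd4l (-0.68, SE 0.24), mt-Nd3 (-0.40, SE 0.13) and mt-Nd1 (-0.24, SE 0.07) were lower too, and mt-Nd4 was at -0.01 (SE 0.08). These are shares of a cell's UMIs. Without scaling, a classical monocyte held 31.0 to 45.9 nuclear and 21.6 to 31.3 mitochondrially encoded complex I UMIs, and a Fcer2a B cell 12.3 to 14.8 and 17.1 to 19.0, so that both kinds were higher per classical monocyte.

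Cytoplasmic ribosomal protein genes, which took 20.8% to 23.3% of the UMIs of classical monocytes and 32.2% to 33.8% of those of Fcer2a B cells, moved with this comparison (80 of 94 called lower). With these genes left out of the total, the log2 ratio of the summed complex I level fell from 0.60 to 0.39. Complex IV gave 10 of 11 and complex V 14 of 18 genes called higher.

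**Figure D4:**
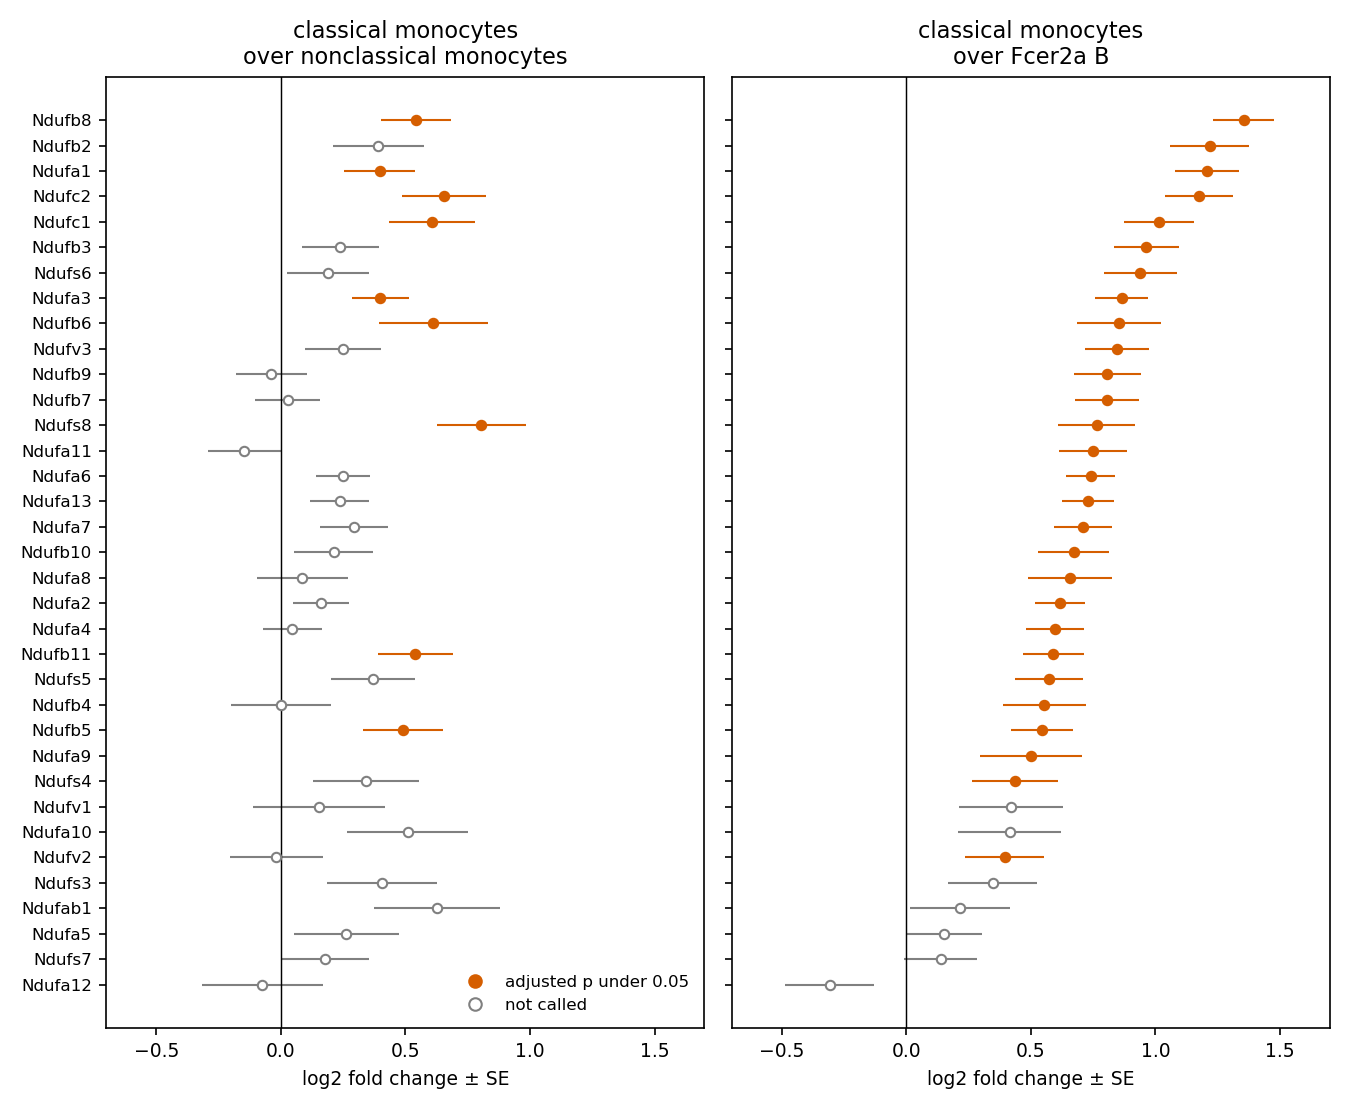
Log2 fold change with its standard error (x axis) of the tested complex I genes reported singly (y axis) in classical over nonclassical monocytes (left) and over Fcer2a B cells (right), with filled points for an adjusted p under 0.05. Filled points mark the 9 called genes on the left and the 28 on the right, and Ndufa12 is the 1 gene on the right with a fold below 0 (-0.31).

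B cells with S100a6 and without Fcer2a were compared with Fcer2a B cells. As a share of UMIs the summed level differed by a log2 ratio of 0.053, and as UMIs per cell by 1.10 (28.8 against 13.4 UMIs). The raw S100a6 limits of these gates also select by depth, and the part of this in the value per cell was not tested. Of 36 genes 6 were called higher and 0 lower (edgeR, sample as block, 2488 genes; 16% of all genes higher and 17.4% lower), with a median of 0.19 against 0.00 for all genes. The 6 were Ndufc2 (0.43, SE 0.12), Ndufa7 (0.38, SE 0.09), Ndufs8 (0.31, SE 0.11), Ndufb4 (0.30, SE 0.11), Ndufb8 (0.30, SE 0.10) and Ndufa13 (0.25, SE 0.09). Ndufa13 was at 309 to 337 CPM in S100a6 and 283 to 301 CPM in Fcer2a B cells, and was the 1 gene of the 36 higher without overlap (8.32% of all genes). This count depended on scaling. Without TMM the median of all genes was -0.11, that of the complex I genes 0.08, and 0 of the 36 were called. DESeq2 called 1. S100a6 B cells were also deeper, at a median of 3870 to 4594 UMIs, and 4 of 6 mitochondrially encoded complex I genes and 49 of 94 cytoplasmic ribosomal protein genes were called higher in them. Without ribosomal protein genes in the total the log2 ratio of the summed level was 0.14.

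Cd4 T cells high in S100a6, a gene known to be raised in memory T cells, were compared with those low in S100a6. Of 36 genes 0 were called (edgeR, 2442 genes, 5.77% of all called; DESeq2 called 0). At an unadjusted p under 0.05 there was 1 complex I gene, and there were 301 genes in all. Of the 36 genes 5 were higher in the high gate without overlap (5.77% of all genes). The median of the 36 genes was 0.12, against 0.00 for all genes, and without TMM the values were 0.31 and 0.20. The summed level was 7091 to 7862 CPM in the high and 5619 to 6794 CPM in the low gate, but with ribosomal protein genes left out of the total the log2 ratio fell from 0.26 to 0.042, and 75 of 95 ribosomal protein genes were called lower in the high gate. The gates held 11 to 195 cells per sample.

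Old were then compared with young samples within each gate. No complex I gene was called in any of the 9 gates tested (edgeR, n = 2 against 2, called genes in either direction 0.585% of all in classical and 0.33% in nonclassical monocytes, 0.3% in Fcer2a, 0.0521% in S100a6 and 0.273% in Vpreb3 B cells, 0.257% in low and 0% in high S100a6 Cd4 T cells, 0.414% in Cd8 T cells with Ccl5 and 0.162% in NK cells). DESeq2 called 0 in each. The authors, with cells as replicates, reported genes of the oxidative phosphorylation pathway as raised with age in their Crip1 B cells and monocytes. Here pools are the replicates and the gates are not their clusters, so the results are not like for like. At an unadjusted p under 0.05 there were 9 of 36 genes in classical monocytes, where 264 of 3420 genes in all passed it. In nonclassical monocytes there were 2 (155 of 2727 genes in all). Fcer2a B cells gave 2 (206 of 2336), S100a6 B cells 3 (366 of 3842) and Vpreb3 B cells 0 (244 of 2927). Low S100a6 Cd4 T cells gave 2 (149 of 2339) and high ones 3 (87 of 2501). Cd8 T cells with Ccl5 gave 3 (247 of 2898) and NK cells 1 (126 of 2467). Cd8 T cells low in Ccl5 were not tested, since the first old sample held 3 of them. Klrb1c T cells, at 13 to 94 cells per sample, were not tested with age either, and their summed level had a log2 ratio of old to young of -0.063.

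The summed level was higher in both old than in both young samples in 8 of 16 gates (Fcer2a and S100a6 B, low S100a6 Cd4 T, both Cd8 T gates, both monocyte gates and dendritic cells) and lower in 1, the cycling cells. The first old sample held only 3 Cd8 T cells low in Ccl5 and 7 dendritic cells, and the cycling gate held 6 to 12 cells per sample. In classical monocytes the log2 ratio of old to young was 0.24. Of their 36 genes tested 30 had a fold above 0 (47.9% of all), with a median of 0.30 against -0.02 for all genes. In 14 genes both old samples lay above both young ones (16% of all genes), and in 4 both lay below. Other respiratory genes had similar folds, above 0 for 11 of 11 genes of complex IV (median 0.33) and 18 of 18 of complex V (0.25). For complex III it was 7 of 9 (0.28) and for complex II 2 of 4 (0.04). The rise was thus not particular to complex I. Nonclassical monocytes had a median of 0.12 with 30 of 35 folds above 0 (49.9% of all). Both old samples were above both young ones in 7 genes (15% of all) and below in 1. There, complex IV had 10 of 11 folds above 0 (median 0.13) and complex V 18 of 18 (0.17).

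The genes with the smallest p in old classical monocytes were Ndufs8, Ndufb4 and Ndufa3. Ndufs8 was at 113 and 163 CPM in the young and 248 and 275 CPM in the old (log2 fold change 0.95, SE 0.29, edgeR adjusted p = 0.132). Ndufb4, of the membrane arm, was at 169 and 81.6 CPM in the young, from 15 and 8 UMIs, and 232 and 250.3 CPM in the old (1.01, SE 0.31, edgeR adjusted p = 0.137). Ndufa3 was at 542 and 499.5 CPM and at 756 and 722 CPM (0.56, SE 0.18, edgeR adjusted p = 0.177). In each of them both old samples were above both young ones. All 3 were called when no filter on low counts was used, and Ndufb4 was called without the first young sample. The young gate held 23 and 24 cells and the old 132 and 92. Ndufa12, lowest of these in young classical monocytes, was at 33.9 and 61.2 CPM in the young and 111 and 90.8 CPM in the old (1.12, SE 0.47, edgeR adjusted p = 0.469).

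Whether age differed in effect between the monocyte gates was tested as an interaction (edgeR). It called 0 of 35 complex I genes and 0 of 2864 genes in all (0%). At an unadjusted p under 0.05 there were 2 of the 35, and 129 of the 2864 genes. The sample was left out of this fit, so the 2 gates of a pool were treated as independent. Between S100a6 and Fcer2a B cells the interaction, fitted the same way, called 0 of 36 (1 of 2488 genes, 0.0402%). At an unadjusted p under 0.05 there were 0 of the 36, and 159 of the 2488 genes.

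In S100a6 B cells the median was 0.19, with 30 of 36 folds above 0 (47.9% of all) and both old samples above both young ones in 21 genes (23.3% of all). Complex IV gave 9 of 11 folds above 0 (median 0.11) and complex V 14 of 18 (0.14). The summed complex I level of S100a6 B cells was 5397 and 5563 CPM in the young and 6571 and 5973 CPM in the old. This gate held 213 and 132 young and 1812 and 518 old cells. The authors found a B cell cluster marked by Zcwpw1 and S100a6 almost only in old blood. The make-up of the gate can thus differ with age, and its part in these values was not tested. Ribosomal protein genes took 38.9% and 38.2% of young UMIs and 32.9% and 36.3% of old UMIs, and without these genes in the total the log2 ratio of old to young fell from 0.19 to 0.11. Cd8 T cells with Ccl5 had a median of 0.10 and 16 of 36 genes with both old samples above (22.8% of all), and without ribosomal protein genes in the total the log2 ratio of the summed level fell from 0.15 to 0.053. Fcer2a and Vpreb3 B cells each had a median of 0.09, with 5 and 6 such genes (15.8% and 13.8% of all). The medians of Cd4 T cells low (0.13) and high (0.024) in S100a6 and of NK cells (0.049) turned negative under at least 1 alternative. In NK cells both old samples lay below both young ones in 7 genes and above in 5. The counts were 5 below and 14 above in low, and 5 below and 8 above in high S100a6 Cd4 T cells. Cd8 T cells with Ccl5 had 2 genes below, Fcer2a B cells 1, and S100a6 and Vpreb3 B cells 0. The shares of all genes beside these counts were not taken. Low S100a6 Cd4 T cells numbered 18 and 11 in the old samples, and their log2 ratio of the summed level fell from 0.16 to 0.066 without ribosomal protein genes in the total.

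**Figure D5:**
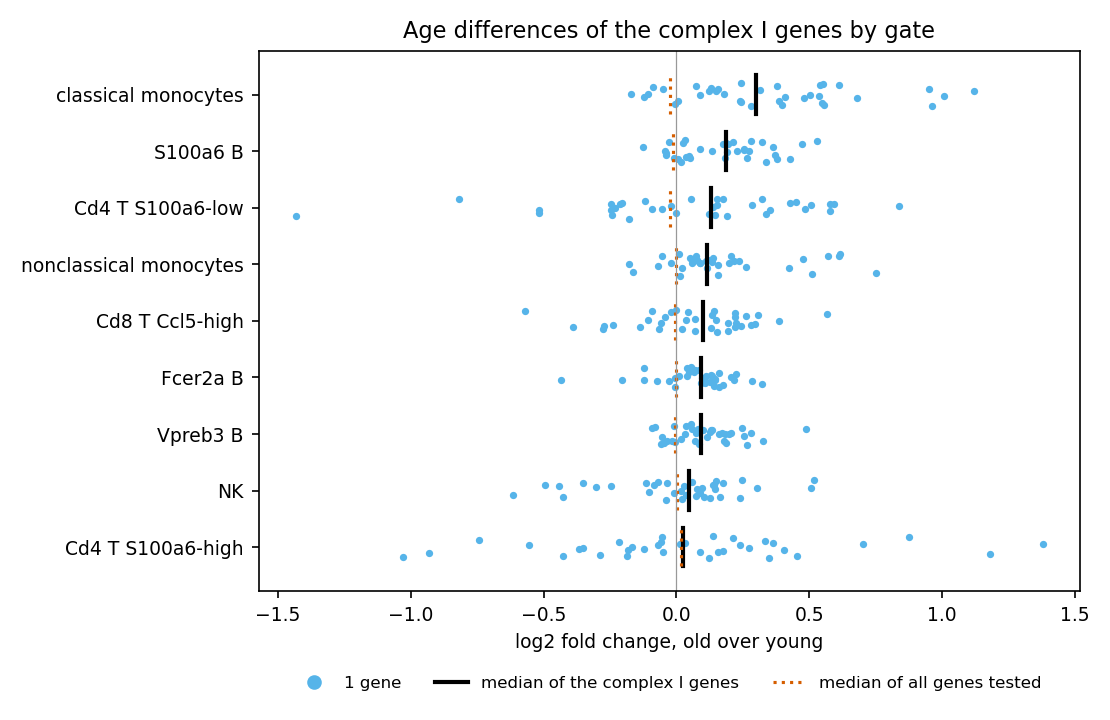
Log2 fold change of old over young (x axis) of each tested complex I gene in the 9 gates tested (y axis), with a black line at the median of the complex I genes and a dotted line at that of all genes tested. The median is 0.30 in classical monocytes and 0.024 in high S100a6 Cd4 T cells, and no point was called.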

How the data were processed

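UMI counts of 4 samples were used as deposited. The authors made these counts with Cell Ranger on mm10, combined the samples, and filtered cells in Seurat 2.3.0 by genes detected and mitochondrial UMIs. Cells were assigned to samples by the deposited cell list and to gates by raw marker UMIs. UMIs were summed per sample and gate and tested with edgeR 4.0.16 (quasi-likelihood, TMM) where every sample held at least 10 cells (not Klrb1c T cells, for which no age test was planned), over genes with a UMI in at least 10% of the cells of each group, at an adjusted p of 0.05. CPM divides by all UMIs of a gate. Gates were compared with the sample as block, but the interactions of age and gate were fitted without it. DESeq2 1.42.0, other filters and scalings and left-out samples were alternatives. Fits of some comparisons were run on simulated data with larger changes than most reported here and the same spread for every gene. No result here rests on those runs. Same-numbered samples did not deviate together in most gates. The genes, gates and lists were chosen with earlier results of these data known. Named are called genes, up to 8 per direction, core genes, Ndufa4, Ndufab1 and untested genes; others were named after their values were seen. Whether mice of different samples share a litter is not stated. The p-values of the age tests measure the spread between pools. Those of the blocked gate comparisons measure the spread of the gate difference over the samples. 1 member is counted but not reported singly here. R 4.3.3, Python 3.11.15, numpy 2.4.6, pandas 2.3.3 and matplotlib 3.10.9 were used.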

Additional observations from a re-analysis of the deposited data

How the results depend on the processing

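The comparison of classical monocytes with Fcer2a B cells kept 22 to 30 called genes over its alternatives. Classical against nonclassical monocytes gave 0 called genes with DESeq2, 4 with stricter gates and 1 to 8 when 1 sample was left out. S100a6 against Fcer2a B cells gave 1 with DESeq2, 2 with filterByExpr or no filter, 0 without TMM, 3 with stricter gates or without cells holding platelet UMIs, 2 with cells of 2000 to 6000 UMIs (an alternative added after seeing the data), and 1 to 6 when 1 sample was left out. With age, classical monocytes gave 3 called genes with no filter and 0 to 1 when 1 sample was left out, and all other gates gave 0 under every alternative run. As UMIs per cell, not scaled, the log2 ratios of the summed level with age were 0.13 in Fcer2a B, 0.37 in S100a6 B, 0.30 in Vpreb3 B, 0.29 in low and -0.079 in high S100a6 Cd4 T, 0.030 in Cd8 T with Ccl5, 0.23 in NK cells and 0.50 in classical monocytes. Between gates they were 0.81 for classical over nonclassical monocytes, 1.10 for S100a6 over Fcer2a B and 1.48 for classical monocytes over Fcer2a B. Without ribosomal protein genes in the total they were, with age, 0.053 in Cd8 T with Ccl5, 0.11 in S100a6 B, 0.066 in low and 0.011 in high S100a6 Cd4 T, and, between gates, 0.14 for S100a6 over Fcer2a B, 0.042 for high over low S100a6 Cd4 T and 0.39 for classical monocytes over Fcer2a B. The median log2 fold change with age turned to -0.27 in low S100a6 Cd4 T and -0.064 in NK cells with no filter, to -0.034 and -0.13 in low and high S100a6 Cd4 T without the first old sample and to -0.012 in NK cells without the second old sample, and that of the Cd4 T pair to -0.051 with no filter. The causes were not tested. Calls over all genes under the same alternatives are not given in this section. Whether a change in a count is particular to the complex I genes can therefore not be told.

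Same-numbered samples deviated with correlations of -0.40 to 0.27 over 14 gates, and with 2 pairs the numbers do not pair the samples. With a replicate block the age comparison called 0 complex I genes in each of the 9 gates, and a crossed pairing, added after seeing the data, also called 0. Without the sample as block, classical over nonclassical monocytes gave 8, S100a6 over Fcer2a B 4, classical monocytes over Fcer2a B 30 and the Cd4 T pair 0. Stricter gates for the Cd4 T gates and cells of 2000 to 6000 UMIs for low S100a6 Cd4 T with age and for the Cd4 T pair were not run, nor was any test of Cd8 T cells low in Ccl5, for lack of cells. The young classical monocytes rest on 23 and 24 cells.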
